A study of Homo sapiens with 4 samples.

Results

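The 10 genes described here are transcription factors, cadherins and surface or cytoskeletal markers by which melanoma cells are assigned to a melanocytic or an invasive state: SNAI1, SNAI2, TWIST1, ZEB1, ZEB2, CDH1, CDH2, VIM, AXL and NGFR. They were chosen by gene symbol, and each symbol was looked up in the platform annotation of the array. All 10 had at least 1 probe set of their own, 12 probe sets in all. The deposited values covered 17144 genes with a probe set of a single symbol and 27631 probe sets. Where a gene had several probe sets, the one with the highest mean over the arrays stood for it. All 10 also passed a floor on low values, set at the 40th percentile of the mean over the arrays (3.96 on the log2 scale), which kept 16579 probe sets.

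The study exposed WM35 cells, a human line from a melanoma of the radial growth phase, to C646, an inhibitor of the acetyltransferase activity of p300 and CBP, to learn how transcription responds. The groups were DMSO at 0.2% for 6 h, DMSO at 0.2% for 24 h, C646 at 20 µM for 6 h and C646 at 20 µM for 24 h. Every group was the same unmodified line in the same serum-containing medium, and each was 1 array (Affymetrix GeneChip Human Exon 1.0 ST) of total RNA, with no second culture. Values are log2 expression as deposited, differences are log2 differences between 2 arrays, and no difference at a single time has a replicate check or a p-value.

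The factors SNAI1, SNAI2, TWIST1, ZEB1 and ZEB2 bind E-box sequences and are best known for repressing E-cadherin (CDH1) and other epithelial genes during epithelial-mesenchymal transition. In the melanocyte lineage they do not act as one group: SNAI2 and ZEB2 are expressed in melanocytes and go with the differentiated, MITF-high state, whereas ZEB1 and TWIST1 go with dedifferentiated and invasive cells. A move from E-cadherin to N-cadherin (CDH2), together with vimentin (VIM), the receptor kinase AXL and the nerve growth factor receptor NGFR, is commonly read as a switch of phenotype.

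Across all probe sets, the array of C646 at 24 h stood apart, correlating with the other arrays at 0.975 to 0.979, while the other 3 correlated with each other at 0.991 to 0.996. Of 8 defining melanocytic markers, 6 had a probe set of their own and all 6 passed the floor (MITF, SOX10, PMEL, MLANA, TYRP1 and S100B). Most markers of other cell types lay below the floor: 2 of 5 keratinocyte, 2 of 6 fibroblast, 1 of 5 leukocyte and 2 of 6 endothelial markers passed it. Those were KRT10, IVL, COL1A1, LUM, CD68, CLDN5 and KDR, and apart from KDR their differences lay between -0.21 and 0.16. The summed log2 level of each of these lists stayed within a narrow range over the 4 arrays (21.6 to 21.9, 23.7 to 24.4, 22.0 to 22.4 and 25.9 to 26.7). The sums include the markers below the floor, which made up most of each list. They therefore say little about the share of other cell types. The endothelial receptor gene KDR was higher under C646, by 0.53 and 0.68, while PECAM1, CDH5, VWF and TEK lay below the floor. Proliferation genes, such as MKI67, TOP2A and CCNA2, were lower under C646 at 24 h, with a median of -2.19 over 10 genes and 9 of them at least 2-fold lower, after a median of -0.31 at 6 h. The part of this shift in the results for the 10 genes was not tested. In RNA from whole cultures, fewer cells expressing a gene and less of its RNA per cell cannot be told apart.

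Promoter sequences are shown for ZEB1 and ZEB2, the related factors that differed in opposite directions at 24 h, and for AXL, which differed least, since SNAI and ZEB proteins bind the E-box letters CACCTG. RefSeq windows (build GRCh38.p14) were matched for 5 of the 10 genes (ZEB1, ZEB2, CDH2, VIM and AXL), and the 250 bases before the most upstream listed start were searched for CACCTG and its reverse complement CAGGTG, which covers both strands. Capitals mark a match. The ZEB1 window is chr10:31318167-31318416 on the + strand, that of ZEB2 is chr2:144520120-144520369 on the - strand and that of AXL is chr19:41218973-41219222 on the + strand, each written 5′ to 3′ along the gene.
ZEB1: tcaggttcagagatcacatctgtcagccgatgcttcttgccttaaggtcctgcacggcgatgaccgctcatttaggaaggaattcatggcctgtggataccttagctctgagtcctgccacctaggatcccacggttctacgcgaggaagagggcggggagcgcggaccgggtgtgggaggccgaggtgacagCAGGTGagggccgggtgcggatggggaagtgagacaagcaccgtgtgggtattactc
ZEB2: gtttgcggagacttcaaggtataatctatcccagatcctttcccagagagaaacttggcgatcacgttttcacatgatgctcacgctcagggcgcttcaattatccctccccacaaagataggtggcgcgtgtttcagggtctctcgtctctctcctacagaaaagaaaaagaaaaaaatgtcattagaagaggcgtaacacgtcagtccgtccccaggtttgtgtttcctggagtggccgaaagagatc
AXL: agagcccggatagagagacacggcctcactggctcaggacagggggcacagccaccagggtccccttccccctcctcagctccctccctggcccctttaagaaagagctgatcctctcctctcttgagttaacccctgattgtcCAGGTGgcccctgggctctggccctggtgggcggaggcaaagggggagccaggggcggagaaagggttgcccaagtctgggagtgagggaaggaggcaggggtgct
ZEB1 had 1 match, beginning 57 bases before the start, AXL had 1, beginning 106 bases before it, and ZEB2, CDH2 and VIM had none, so 2 of 5 windows held the letters, as did 17.5% of 35116 windows of the same length. A match is a description of the letters, not of binding.

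After 24 h of C646, NGFR, SNAI2, ZEB2 and VIM were higher than in DMSO, ZEB1, CDH1, TWIST1 and CDH2 were lower, and SNAI1 and AXL differed least. The differences ran from -0.47 for ZEB1 to 0.62 for NGFR, and the median over the 10 genes was -0.05 against 0.03 over all probe sets above the floor. No gene differed by 2-fold, a size that 3.64% of all probe sets reached in either direction. At least 1.5-fold, or 0.585 on the log2 scale, was reached by 1 of the 10, NGFR, against 10.3% of all probe sets. NGFR fell short of it, at 0.56, with the mean of both DMSO arrays as control, where SNAI2 (0.61) and ZEB2 (0.60) reached it, and with each array centred on its median SNAI2 (0.59) reached it beside NGFR. The share of the 10 genes past 1.5-fold was thus near that of all probe sets. Its median size of difference, 0.38, lay beside 0.18 over all probe sets, with 5 genes above 0 and 5 below.

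After 6 h, 8 of the 10 genes lay closer to DMSO than after 24 h, SNAI2 by a small margin, and CDH2 and SNAI1 lay farther from it. The share of all probe sets that lay closer was not computed. Their median size of difference was likewise smaller at 6 h (0.11) than at 24 h (0.18). Differences ran from -0.31 for CDH2 to 0.55 for SNAI2, with a median of -0.04 and again 5 genes on either side of 0. None reached 2-fold, as 0.241% of all probe sets did, and none reached 1.5-fold, as 2.26% did. In 8 of the 10 genes the difference had the same sign at both times, against 64.5% of all probe sets. These 2 comparisons share no array.

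**Figure D1:**
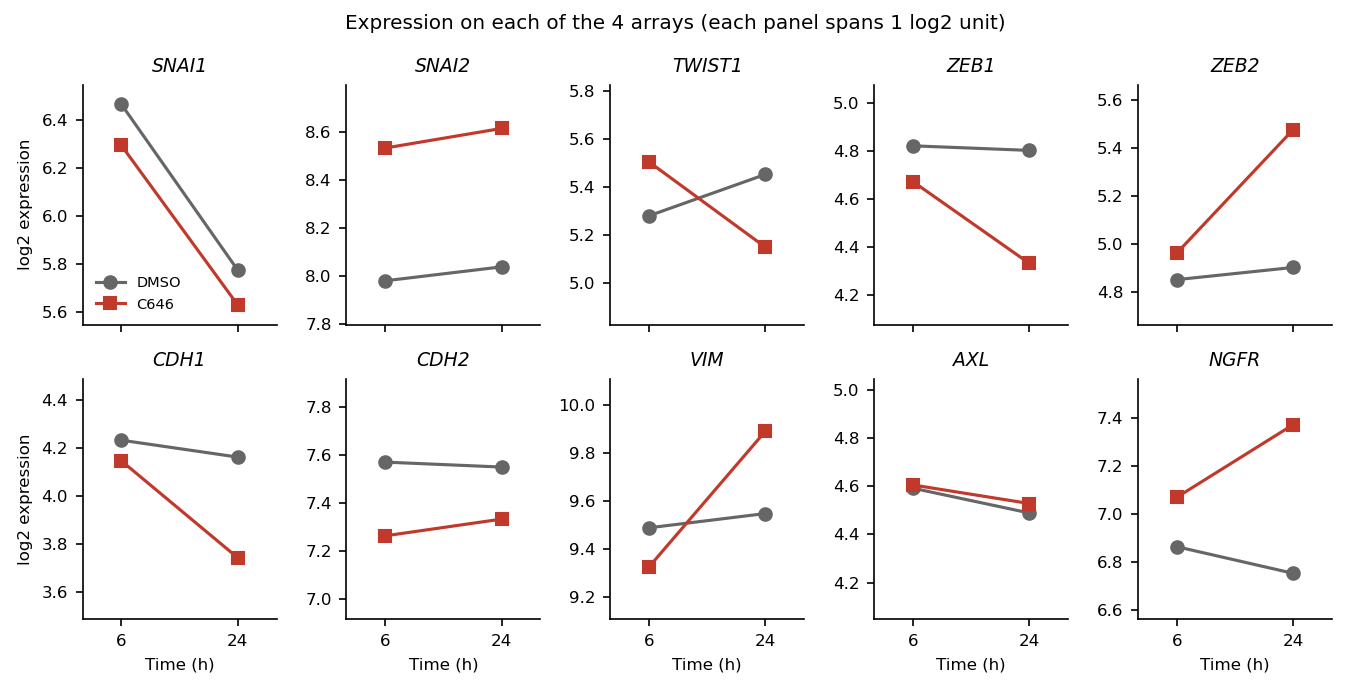
Log2 expression of each gene on the 4 arrays, with time in hours on the horizontal axis, grey circles for DMSO and red squares for C646; every point is 1 array and every panel spans 1 log2 unit. SNAI2 under C646 lies 0.55 and 0.58 above DMSO at 6 h and 24 h, SNAI1 is lower at 24 h on both lines, and the lines of TWIST1 and VIM cross.

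SNAI2, the gene of the factor Slug, had the largest difference of the 10 at 6 h and kept it. It read 7.98 with DMSO at 6 h, 8.04 with DMSO at 24 h, 8.53 with C646 at 6 h and 8.62 with C646 at 24 h. Both C646 arrays were high and both DMSO arrays low, with a gap of 0.49 between the nearest of them. The difference was 0.55 at 6 h, larger in size than 97.3% of all probe sets, and 0.58 at 24 h, larger than 89.3%. In DMSO the gene differed by only 0.06 between the times.

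SNAI1, which encodes Snail, the closest relative of SNAI2 among the 10, differed more by time than by treatment. It read 6.47 and 5.77 with DMSO at 6 h and 24 h, and 6.29 and 5.63 with C646. The 6 h arrays were high and the 24 h arrays low under both treatments, so the C646 and DMSO arrays overlapped. The change with time was -0.69 in DMSO and -0.66 in C646, a pair of differences that share no array. In DMSO it was larger than that of 99.3% of all probe sets, and SNAI1 was the 1 gene of the 10 that reached 1.5-fold between the vehicle arrays, as 1.20% of all probe sets did, while none reached 2-fold (0.145%). Within C646 it was also the 1 gene past 1.5-fold, against 9.11% of all probe sets. C646 minus DMSO was -0.17 at 6 h and -0.15 at 24 h, and when the mean of both DMSO arrays served as control these became 0.17 and -0.49.

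ZEB1 and ZEB2, which encode related zinc-finger repressors, differed in opposite directions at 24 h. ZEB2 read 4.85 and 4.90 with DMSO at 6 h and 24 h, and 4.96 and 5.48 with C646. ZEB1 read 4.82 and 4.80 with DMSO, and 4.67 and 4.33 with C646. Both genes were nearly flat in DMSO, and in both the C646 array of 24 h stood away from the other 3, upward for ZEB2 and downward for ZEB1.

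For ZEB2 the difference grew from 0.11 at 6 h to 0.57 at 24 h, the latter larger in size than 89.2% of all probe sets. A further ZEB2 probe set read 0.10 and 0.33 higher at the 2 times, but its number lies among those of chromosome 4 whereas the gene is on chromosome 2, so which transcript it reads is uncertain. For ZEB1 the difference was -0.15 at 6 h and -0.47 at 24 h, the latter larger in size than 84.5% of all probe sets. The C646 and DMSO arrays did not overlap for either gene, with gaps of 0.06 for ZEB2 and 0.13 for ZEB1.

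TWIST1, a basic helix-loop-helix factor of the invasive state, differed in opposite directions at the 2 times. It read 5.28 and 5.45 with DMSO at 6 h and 24 h, and 5.51 and 5.15 with C646. C646 was highest at 6 h and lowest at 24 h, and the arrays overlapped. The differences were 0.22 and -0.30, beside a change of 0.17 in DMSO. A second TWIST1 probe set, below the floor, differed by 0.15 and 0.12, so the probe sets disagreed in sign at 24 h, and their mean gave -0.09 there.

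Among the cadherins, both CDH1 and CDH2 were lower under C646 on both arrays. CDH1, the gene of E-cadherin, read 4.23 and 4.16 with DMSO at 6 h and 24 h, and 4.15 and 3.74 with C646. The last value lay below the floor of 3.96 and the others just above it, and the 6 h array of C646 was 0.02 under the lower DMSO array. The differences were -0.09 and -0.42. CDH2, the gene of N-cadherin, read 7.57 and 7.55 with DMSO, and 7.26 and 7.33 with C646. Both C646 arrays of CDH2 were low, by 0.31 at 6 h and 0.22 at 24 h, against a change of -0.02 in DMSO.

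VIM, the gene of the intermediate filament vimentin, stood highest with C646 at 24 h and lowest with C646 at 6 h. It read 9.49 and 9.55 with DMSO at 6 h and 24 h, and 9.33 and 9.89 with C646, so the DMSO arrays lay between those of C646. The differences were -0.16 and 0.34, the latter larger in size than 74.9% of all probe sets.

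The receptors went separate ways. NGFR, the low-affinity neurotrophin receptor CD271, read 6.87 and 6.75 with DMSO at 6 h and 24 h, and 7.07 and 7.37 with C646. Both C646 arrays were above both DMSO arrays, by 0.21 at the least. Its difference was 0.21 at 6 h and 0.62 at 24 h, which was 1.54-fold and larger in size than 90.7% of all probe sets. AXL, a receptor tyrosine kinase for GAS6, read 4.59 and 4.49 with DMSO, and 4.61 and 4.53 with C646. All 4 arrays lay within 0.12, the narrowest range of the 10 genes, and C646 minus DMSO was 0.01 and 0.04. These values lay little above the array medians of 4.39 to 4.41. No detection call was used, so whether AXL was expressed was not tested.

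**Figure D2:**
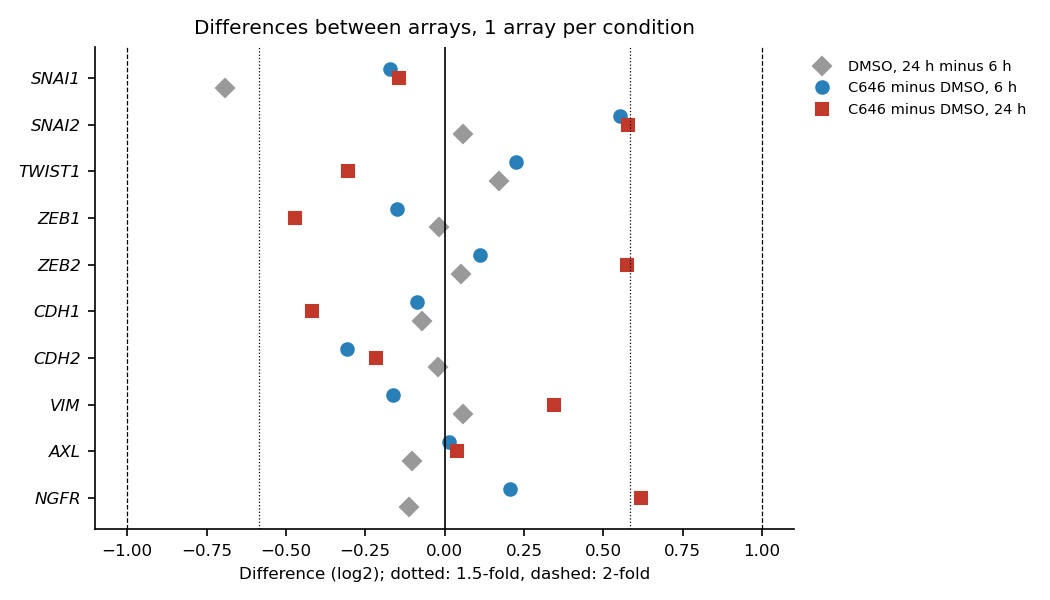
Log2 differences between arrays for each gene: blue circles are C646 minus DMSO at 6 h, red squares C646 minus DMSO at 24 h and grey diamonds DMSO at 24 h minus DMSO at 6 h; dotted and dashed lines mark 1.5-fold and 2-fold. NGFR at 24 h is the C646 difference past the dotted line, at 0.62, and the vehicle change of SNAI1, at -0.69, is the other point past one.

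Subtracting the C646 difference of 6 h from that of 24 h gave values near 0 for 4 genes and larger ones for the other 6. It was 0.02 for SNAI2, 0.03 for SNAI1, 0.03 for AXL and 0.09 for CDH2. It was 0.51 for VIM, 0.46 for ZEB2 and 0.41 for NGFR, while TWIST1 was lowest at -0.53, followed by CDH1 at -0.33 and ZEB1 at -0.32. None reached 1.5-fold, as 9.16% of all probe sets did, or 2-fold (3.14%). These changes of a difference involve all 4 arrays and were not tested, as each condition had 1 array.

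**Figure D3:**
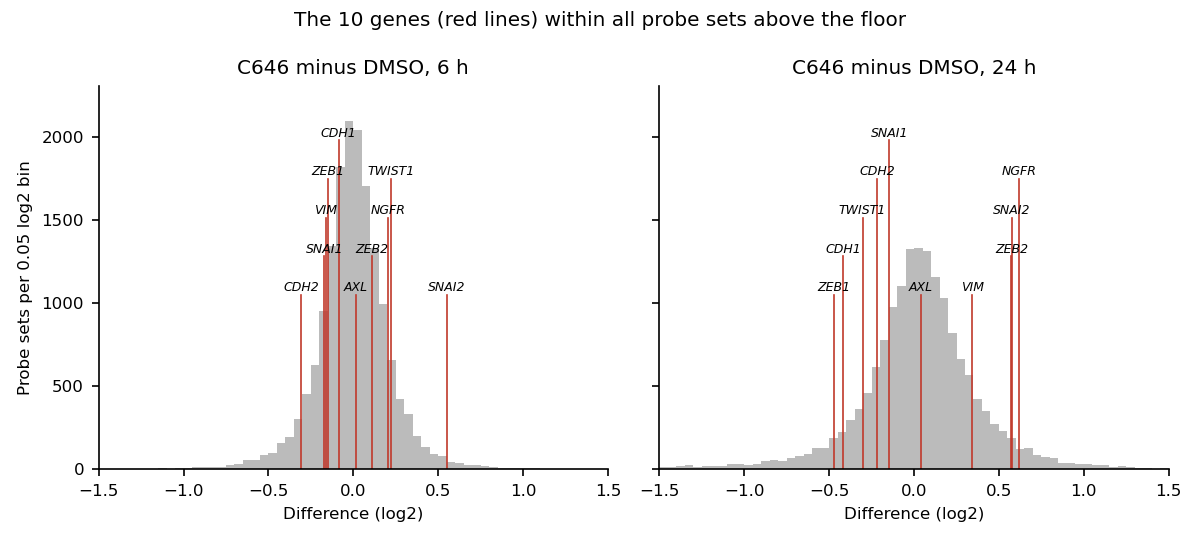
Histogram of C646 minus DMSO over the probe sets above the floor at 6 h (left) and 24 h (right), in bins of 0.05 log2 units and shown from -1.5 to 1.5, with a red line for each of the 10 genes, whose heights only separate the labels. SNAI2 is alone on the right flank at 6 h, at 0.55; at 24 h ZEB2, SNAI2 and NGFR lie together between 0.57 and 0.62, and ZEB1 and CDH1 on the left flank.

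In 6 of the 10 genes both C646 arrays lay on one side of both DMSO arrays: above for SNAI2, ZEB2 and NGFR, and below for ZEB1, CDH1 and CDH2. This was so for 47.1% of all probe sets. A treatment effect shared by the times was estimated with limma from the 4 arrays, adjusting for time, and 1 degree of freedom remained for the error. That error comes from how far the effects of 6 h and 24 h disagree, moderated by limma toward the disagreement over all probe sets. It says nothing of the spread of cultures. None of the 10 genes passed limma's adjusted p of 0.05, and neither did any probe set (0%). At an unadjusted limma p under 0.05 there was 1 of the 10, SNAI2, against 11.0% of all probe sets. The SNAI2 estimate was 0.56 ± 0.11 (SE), with a limma p of 0.00763 and a limma adjusted p of 0.448.

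The next estimates were 0.41 ± 0.15 for NGFR, 0.34 ± 0.15 for ZEB2, -0.31 ± 0.12 for ZEB1, -0.26 ± 0.11 for CDH2 and -0.25 ± 0.11 for CDH1 (SE from limma), and their limma adjusted p-values lay between 0.448 and 0.464. SNAI1 at -0.16, VIM at 0.09, TWIST1 at -0.04 and AXL at 0.03 had limma adjusted p-values of 0.576 and above. Fits that leave out an array could not keep the time term, since no degree of freedom would remain, so they had treatment as their only term. With all 4 arrays and treatment as the only term, 0 of the 10 passed limma's adjusted p, and neither did any other probe set. In that fit 1608 of the 16579 probe sets, and 3 of the 10 genes, had an unadjusted limma p under 0.05. Without the C646 array of 6 h, the C646 array of 24 h was set against both DMSO arrays. The estimates were 0.61 for SNAI2, 0.60 for ZEB2, 0.56 for NGFR and 0.37 for VIM. They were -0.49 for SNAI1, -0.48 for ZEB1, -0.45 for CDH1, -0.23 for CDH2, -0.22 for TWIST1 and -0.01 for AXL. That fit takes its spread from the DMSO pair, moderated by limma over all probe sets. Its estimates include any change with time. The SNAI2 estimate was 0.54 without DMSO at 6 h, 0.59 without DMSO at 24 h and 0.52 without C646 at 24 h. In that order SNAI1 was at 0.19, -0.50 and 0.17, so its sign depended on the array left out. Each fit that leaves out an array has 1 array in a group, and no p-value is given for it.

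Relatives and cofactors of the factors differed little under C646. The list comprises E-protein partners, the CtBP corepressors and regulators of Snail stability. Of 16 listed, 13 had a probe set and 11 passed the floor; 2 were above 0 and 9 below at 24 h, with a median of -0.15 after -0.09 at 6 h, and none differed by 1.5-fold at either time. TCF3, an E-protein that pairs with TWIST1, was at -0.25, as was FBXL14, a ubiquitin ligase subunit for Snail, while GSK3B, a kinase that marks Snail for degradation, was at 0.04 and TCF4 at 0.01.

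Epithelial genes were little altered at 24 h. Of 30 junction and epithelial identity genes, 27 had a probe set, 15 passed the floor and 12 did not, among the latter EPCAM, ESRP1 and GRHL2. The median was -0.10 at 6 h, with 14 of 15 below 0, and -0.0019 at 24 h, with 8 of 15 below 0. The desmosomal gene DSP was at -0.65 at 6 h, the only one past 1.5-fold, and at -0.25 at 24 h. At 24 h TJP1 was at -0.18, CLDN3 at 0.24 and PKP2 at 0.20, and none reached 1.5-fold.

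The catenins, which couple cadherins to actin, and other cadherins had medians of 0.05 at both times over 8 genes above the floor of 15 with a probe set. CTNNB1, the gene of beta-catenin, was at 0.04 and 0.52, the highest of them at 24 h. AFDN was at 0.12, CDH15 at 0.02 and CDH19, a cadherin of the neural crest lineage, at -0.03 after -0.49 at 6 h. None reached 1.5-fold at either time.

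Of the mesenchymal, matrix and protease genes, 15 of 21 were below 0 at 6 h (median -0.14), where 49.4% of all probe sets were above 0, and 18 of 21 were above 0 at 24 h (median 0.11), where 55.0% were. In 13 of the 21 the difference was below 0 at 6 h and above 0 at 24 h, the signs of VIM, as in 20.6% of all probe sets. CCN1, a matricellular target of YAP signalling, was at -0.53 and then 0.68, the 1 gene of the list past 1.5-fold. CCN2 was at -0.25 and 0.57. NES, the gene of the filament protein nestin, and ITGA5 were lowest at 24 h, both at -0.17.

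Partners of the receptors were few. Of the AXL list, the ligand genes GAS6 and PROS1 passed the floor, at 0.21 and -0.12 after 24 h, and the related receptor MERTK lay below it. Of 8 neurotrophin genes above the floor, BDNF, a ligand of NGFR, was at 0.12 and then 0.87, the 1 past 1.5-fold; it read 4.33, 4.62 and 4.45 on the arrays of DMSO at 6 h, DMSO at 24 h and C646 at 6 h, and 5.48 with C646 at 24 h. The kinase receptor NTRK2 was at 0.37 after 24 h, RIPK2 at -0.08 and TRAF6 at -0.23.

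Regulators linked to the invasive, MITF-low state went both ways at 24 h, 13 of 20 above 0 with a median of 0.15, and 1 gene past 1.5-fold in each direction. WNT5A, a ligand that favours motility, was at 0.72 and TCF7L2 at 0.56, whereas TEAD4 was at -0.60 and EGFR at -0.30. The melanocytic list was above 0 in 9 of 11 genes at both times, with medians of 0.29 and 0.40, and 3 genes past 1.5-fold at each time, all higher. MITF, the master factor of the lineage, was at 0.79 and 0.90, and S100B at 0.61 and 1.49, while CDK2 was at -0.17 and RAB27A at -0.02 after 24 h. SNAI2 and MITF both differed at 6 h by about as much as at 24 h. WNT5A and BDNF differed mostly at 24 h, after 0.03 and 0.12 at 6 h, as did ZEB2. The melanocytic list was mixed in timing, and S100B also differed more at 24 h. There the 24 h difference minus the 6 h difference was above 0 in 7 of the 11 genes and below 0 in 4.

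**Figure D4:**
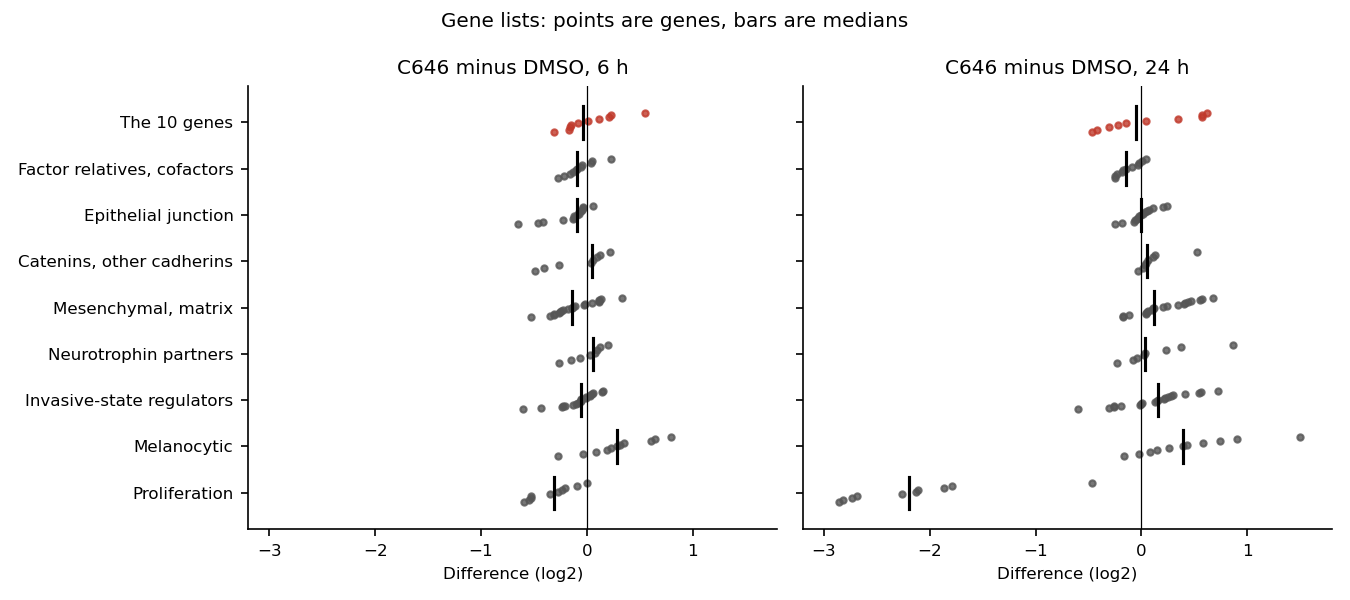
C646 minus DMSO at 6 h (left) and 24 h (right) in log2 units for the 10 genes (red) and 8 other lists (grey); each point is a gene above the floor and each black bar the list's median. At 24 h the 10 genes spread from -0.47 to 0.62 on both sides of 0, the melanocytic list has its median at 0.40, and the proliferation list at -2.19.

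The genes nearest in pattern to the 3 most variable of the 10 were found among 10622 named genes by the Euclidean distance between log2 profiles over the 4 arrays, each centred on its mean. With 4 arrays and so many genes, close matches are common. Nearest to SNAI1 were PIGA (distance 0.13), VDR (0.18) and SRSF7 (0.20), all lower at 24 h in both treatments; PIGA changed by -0.58 in DMSO. Nearest to SNAI2 were the lysosomal fucosidase gene FUCA1 (0.05), SLC18B1 (0.05) and the interferon-inducible gene OAS1 (0.06). Nearest to ZEB2 were CHMP1B (0.017), EDIL3 (0.028) and TMEM8B (0.030), whose C646 differences at 24 h were all 0.57. EDIL3 lay below the floor on every array but that of C646 at 24 h.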

How the data were processed

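RNA of the 4 cultures was measured on 1 exon array each. The authors' deposited table holds log2 expression for 27631 probe sets, from 2.48 to 13.6; the scale was read from the values, and array medians of 4.39 to 4.41 show a common scale. The summary and normalisation method was not given in the sources used here. Per the submitters' processing notes, the build is hg19. By the platform annotation, 20429 probe sets had 1 symbol, 4232 had several and 2970 had no symbol; symbols were updated by Entrez identifier (GRCh38.p14 gene table, 20362 matched).

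Here, differences between arrays and the share of probe sets past 1.5-fold and 2-fold were computed (Python 3.11.15, pandas 2.3.3). The package limma 3.58.1 (R 4.3.3) was fitted to all 16579 probe sets above the floor, with a trend of variance on mean and Benjamini-Hochberg adjusted p-values. Both were tested on simulated data with changes of at least 2-fold, the same at both times. No difference of the 10 genes was that large, so recovery at their sizes was not tested. Probe sets were placed by the commonest chromosome of the 25 numbered on either side. The genes and lists were chosen with earlier results of these data known. All 10 genes are named, with each list's 2 highest and 2 lowest genes at 24 h and any past 2-fold (for proliferation, examples). Alternatives were quantile normalization, centring, the mean of a gene's probe sets, the mean of both DMSO arrays as control, other floors, no trend and leaving out each array; the fit of all 4 arrays without time was added after seeing the data. The number of arrays limits the precision.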

Additional observations from a re-analysis of the deposited data

Results flagged for a closer look

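TWIST1 and VIM stood on opposite sides of DMSO at the 2 times. TWIST1 differed from DMSO by 0.22 at 6 h and by -0.30 at 24 h, and VIM by -0.16 and 0.34. With 1 array per condition, the difference between the times was not tested for either gene, and the second TWIST1 probe set did not change sign.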

How the results depend on the processing

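Of 140 values of single genes recomputed under quantile normalization, centring, the mean of a gene's probe sets or both DMSO arrays as control, 136 moved by less than 0.17, the SD of the vehicle change over all probe sets, and 4 by more: SNAI1 at 6 h (0.17) and 24 h (-0.49) against both DMSO arrays, and TWIST1 with the mean of its probe sets (-0.09 at 24 h, -0.28 for the change of the difference). No gene reached 2-fold under any of these alternatives. Many of the values could hardly move. Only TWIST1 and ZEB2 had several probe sets, so the mean of probe sets left the other genes unchanged. Centring shifts all genes alike. The mean of both DMSO arrays moves a gene only in step with its own vehicle change. The count past 1.5-fold at 6 h became 1 with quantile normalization (SNAI2, 0.61). At 24 h it became 2 with centring (SNAI2, 0.59, and NGFR, 0.63), and 2 with both DMSO arrays as control (SNAI2, 0.61, and ZEB2, 0.60), when NGFR (0.56) left it; with quantile normalization and the mean of probe sets it stayed at 1. With the floor at the 60th percentile, 7 genes remained and their median at 24 h was 0.34 in place of -0.05. The genes left out for their low levels were ZEB1 (-0.47), CDH1 (-0.42) and AXL (0.04). ZEB1 and CDH1 had the lowest differences of the 10 at 24 h. The median at 6 h became 0.08 against both DMSO arrays and 0.11 with that floor. Leaving out an array, between 0 and 5 genes passed limma's adjusted p. Only the fit without the C646 array of 6 h passed any of the 10 genes, and it passed probe sets outside the 10 as well. That fit has 1 C646 array and takes its spread from the DMSO pair, so nothing is concluded from its count. The limma settings that kept all 4 arrays passed 0 of the 10, with a lowest limma adjusted p between 0.431 and 0.506. Low values limit CDH1, AXL and ZEB1, and no detection call was used.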
